A study of Mus musculus with 6 samples.

Results

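The feedback regulators of the TGF-β pathway were examined as 10 named genes of the deposited count table: Smad7, Smurf1, Smurf2, Bambi, Ski, Skil, Tgif1, Pmepa1, Ldlrad4 and Ltbp2. All 10 were found among the 18512 entries of the table, and all 10 had enough counts to be tested among 13355 tested entries. They were listed by name as a readout of SMAD output when 2APB is added to TGF-β, and no measured value was part of that rule. The list was made with earlier results of these data known, so its contrast with all genes was not tested. NMuMG cells, a mouse mammary gland line of epithelial origin, were serum-starved for 4 h and treated for 24 h, and oligo-dT selected RNA of 2 replicates per group was sequenced, giving 6 libraries in 3 groups. The DMSO group received vehicle and the TGF-β group received TGF-β at 5 ng/ml. The TGF-β+2APB group received the same dose of TGF-β together with 2APB at 50 uM. The study treats 2APB as an inhibitor of store-operated calcium entry, and proposes that it raises calcium influx through the ORAI3 channel. The study's methods also describe 2APB as given before TGF-β, so the order of the additions is uncertain. A group with 2APB and no TGF-β was not analysed here, so an action of 2APB without TGF-β and an action on the TGF-β response cannot be told apart.

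TGF-β binds a pair of receptor kinases at the cell surface, which phosphorylate SMAD2 and SMAD3, and these enter the nucleus with SMAD4 to regulate genes. Many of the genes they switch on encode inhibitors of the same pathway, so the RNA of the inhibitors is often read as a record of recent SMAD activity. The inhibitors act at the receptor, in the cytoplasm on SMAD proteins, or in the nucleus as corepressors. In NMuMG cells this pathway is best known for driving an epithelial to mesenchymal transition.

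Against DMSO, 9 of the 10 genes rose with TGF-β and Bambi fell, where 21.8% of all tested genes rose and 19.7% fell. When 2APB was added to TGF-β, 3 of the 10, Smad7, Pmepa1 and Ldlrad4, rose further by between 1.31-fold and 1.59-fold and none fell. The other 7 did not pass the test. Over all tested genes, 6.58% rose and 10.9% fell when 2APB was added. For 8 of the 10 genes both TGF-β+2APB libraries lay above both TGF-β libraries, while Bambi and Ltbp2 overlapped. Both libraries lay above in 27% of all tested genes and below in 31%. Values are normalized counts, that is, deposited read counts scaled by TMM factors, and differences were called where the FDR (Benjamini-Hochberg) did not exceed 0.05 in edgeR's quasi-likelihood F-test over all tested genes. In the plot of counts by library, the separation of the groups and the spread within each pair can be seen for every gene.

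**Figure D1:**
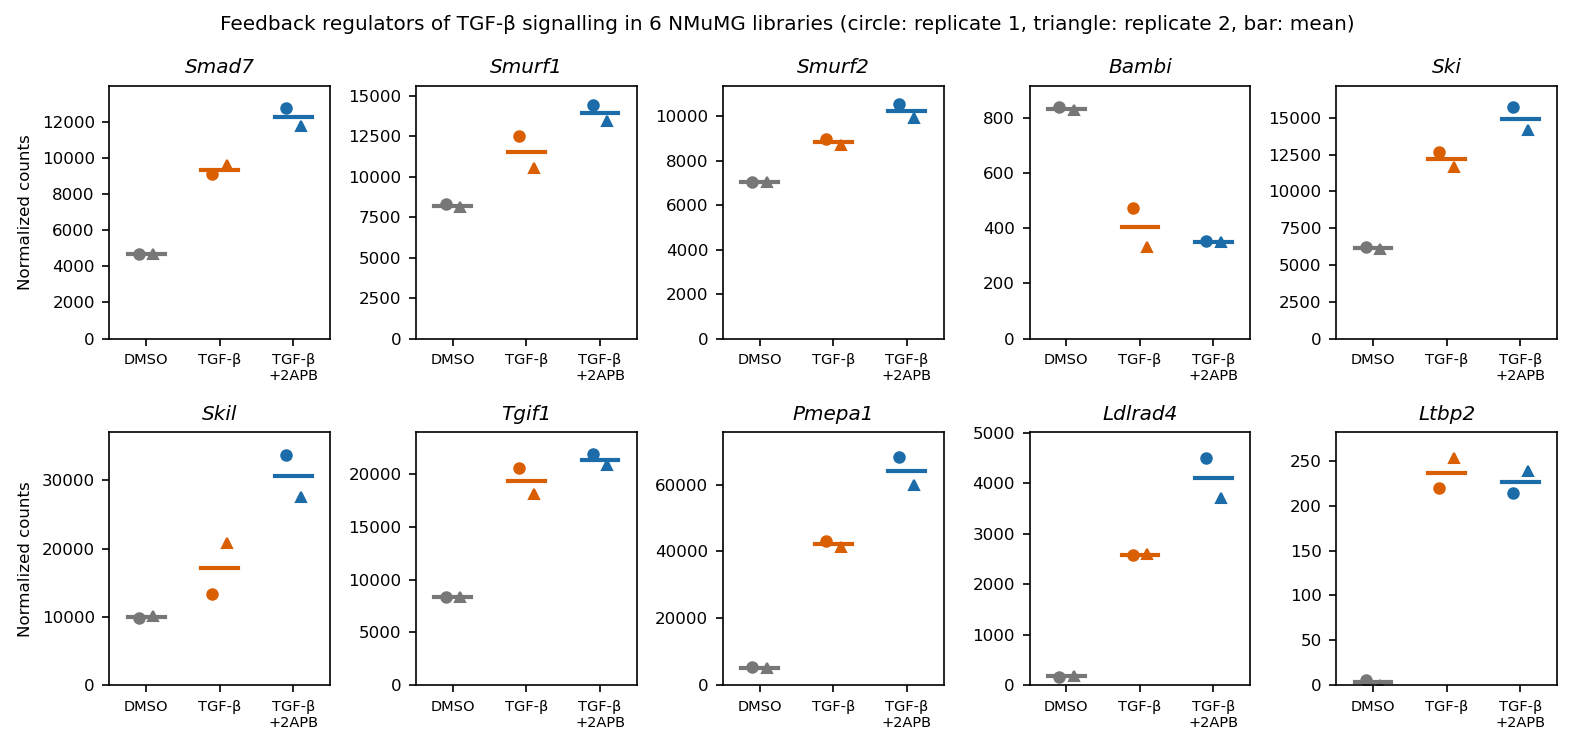
Normalized counts (linear axis from 0) of the 10 feedback regulators in 6 libraries, with replicate 1 as a circle, replicate 2 as a triangle and the group mean as a bar. Smad7, Ski, Pmepa1 and Ldlrad4 step upward from DMSO to TGF-β to TGF-β+2APB, Bambi steps downward with TGF-β, and Ltbp2 is near 0 in DMSO and overlaps between the treated groups.

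Libraries held between 71840570 and 79473182 counts, and TMM factors ran from 0.9717 to 1.03. All deposited counts were even numbers, so the smallest count above 0 was 2. In 1 library, TGF-β+2APB replicate 2, the summed level of 5 leukocyte markers was 1524 normalized counts, against 168.4 to 495.6 in the other 5. The sums were 409.3 and 495.6 in DMSO, 207.6 and 274.8 in TGF-β, and 168.4 and 1524 in TGF-β+2APB. Within that list Ptprc stood at 742 and Cd68 at 620 in this library, while the T cell marker Cd3e was at 0 in all other libraries and 1.97 here. The part of these markers in the results was not tested, and calls on addition of 2APB are given with and without this library. Where a comparison leaves 1 library in a group, that library is assumed to vary like the other groups. In TGF-β+2APB replicate 2, 9 of the 10 feedback regulators were lower than in TGF-β+2APB replicate 1, with Ltbp2 the exception. Replicate 2 was the lower for 6 of 10 in TGF-β and for 5 of 9 in DMSO. The share over all tested genes was not computed, so these counts are not read as a result about the 10. Of the 6 epithelial markers, Krt8 and Krt18 were abundant and Cdh1 was present. Epcam ran from 50.7 to 163 normalized counts, Cldn7 did not exceed 5.90 and Cldn3 had no entry. With TGF-β, Krt8 (log2 fold change 0.66) and Krt18 (0.92) rose, and Cdh1 (-0.78) and Epcam (-1.42) fell, by edgeR's test. Hepatocyte markers, which a mammary line would not be known for, summed to 67110 and 60100 in the DMSO libraries and to between 616.1 and 1433 in the treated libraries. The 4 endothelial markers summed to at most 49.35, and the 5 mesenchymal markers to between 100400 and 191200. In bulk RNA, fewer cells of a type and less RNA per cell cannot be told apart.

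Promoter sequence was given for 5 of the 10 genes, and is shown for Ltbp2, whose window held the most matches to a SMAD box, and Ski, the 1 gene with none. The sequences are RefSeq, build GRCm38.p6, and cover 250 bases before each start, printed 5′ to 3′ on the strand of the gene, with each CAGAC, the short box that SMAD3 and SMAD4 bind, in capitals on either strand (GTCTG on the other). The first lies at chr12:84876492-84876741, minus strand, and the second at chr4:155222536-155222785, minus strand.
Ltbp2: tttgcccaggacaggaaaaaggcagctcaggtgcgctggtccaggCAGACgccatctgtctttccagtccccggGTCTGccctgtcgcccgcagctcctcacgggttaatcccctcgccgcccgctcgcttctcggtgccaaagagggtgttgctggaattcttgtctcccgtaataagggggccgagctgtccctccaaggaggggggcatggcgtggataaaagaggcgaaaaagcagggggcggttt
Ski: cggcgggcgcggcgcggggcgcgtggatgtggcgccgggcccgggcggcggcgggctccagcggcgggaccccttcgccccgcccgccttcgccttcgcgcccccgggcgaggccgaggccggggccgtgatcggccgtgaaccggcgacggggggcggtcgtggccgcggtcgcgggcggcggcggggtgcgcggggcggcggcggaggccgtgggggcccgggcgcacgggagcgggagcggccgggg

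The Ltbp2 window, counted from 250 bases before the start to 50 after it, held 3 CAGAC matches, at positions -205, -176 and 28 from the start, and the Ski window held none. Smurf1 and Smurf2 each had 2 matches, and Tgif1, which has 5 listed starts, had matches in 3 of its windows. Across all 32851 mouse windows of this length, 49.6% held at least 1 match on either strand, 16.2% held at least 2 and 3.9% held at least 3. The palindromic SMAD element GTCTAGAC and the AP-1 site TGANTCA, neither of which contains CAGAC or GTCTG, were in none of the windows of these 5 genes, against 0.213% and 7.81% of all windows. Smad7, Skil, Pmepa1, Bambi and Ldlrad4 had no entry. The matches are a description of letters in these windows.

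Among the inhibitors that act at the receptor and on SMAD proteins, Smad7 encodes the inhibitory SMAD that occupies the activated receptor and recruits ubiquitin ligases to it (chr18:75367529-75395935, plus strand, GRCm38). Smad7 had 4683 and 4657 normalized counts in the DMSO libraries, 9123 and 9578 in the TGF-β libraries, and 12781 and 11760 in the TGF-β+2APB libraries. No group overlapped another. The means were 4670 ± 17.8, 9351 ± 322 and 12270 ± 722 (SD, n = 2). With TGF-β, Smad7 rose 2.00-fold (SE 0.08 on the log2 scale, FDR = 0.000405, edgeR quasi-likelihood test). Addition of 2APB raised it a further 1.31-fold, a log2 fold change of 0.39 (SE 0.08, 95% interval 0.20 to 0.58, FDR = 0.0233, edgeR quasi-likelihood test). Without TGF-β+2APB replicate 2 the log2 fold change of Smad7 was 0.45, and its FDR of 0.0773 no longer passed in the same test.

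Smurf1 (chr5:144876495-144965847, minus strand) and Smurf2 (chr11:106820066-106920715, minus strand) encode the HECT ubiquitin ligases that SMAD7 brings to the receptor. Smurf1 had 8293 and 8141 normalized counts in DMSO, 12513 and 10513 in TGF-β, and 14415 and 13450 in TGF-β+2APB. Smurf2 had 7015 and 7049 in DMSO, 8962 and 8700 in TGF-β, and 10531 and 9910 in TGF-β+2APB. Both genes climbed in order of treatment with no overlap between groups. The steps were smaller than for Smad7, since Smurf1 rose 1.40-fold with TGF-β (FDR = 0.0134) and Smurf2 rose 1.26-fold (FDR = 0.0143) in edgeR's quasi-likelihood test. With 2APB added, the log2 fold change of Smurf1 was 0.28 (95% interval 0.02 to 0.53, FDR = 0.127) and that of Smurf2 was 0.21 (95% interval 0.04 to 0.39, FDR = 0.0999), and neither passed edgeR's test. Between TGF-β and DMSO, both calls were lost with either DMSO library left out. Without DMSO replicate 1 the log2 fold changes there were 0.50 for Smurf1 and 0.33 for Smurf2. Without DMSO replicate 2 they were 0.47 and 0.33.

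Bambi (chr18:3507923-3516404, plus strand) encodes a membrane pseudoreceptor that lacks a kinase domain and interferes with receptor pairing. It was the 1 gene of the 10 to fall. Bambi had 839.7 and 828.9 normalized counts in DMSO, 475.6 and 332.2 in TGF-β, and 354.6 and 349.4 in TGF-β+2APB. All treated libraries lay below both DMSO libraries, and the TGF-β+2APB libraries lay between the TGF-β pair. Its log2 fold change with TGF-β was -1.05 (SE 0.19, FDR = 0.0071, edgeR quasi-likelihood test), to a level 0.484 of DMSO, and FDR = 0.0533 without DMSO replicate 1. On addition of 2APB the log2 fold change was -0.20, with a 95% interval of -0.66 to 0.26 (FDR = 0.50, edgeR quasi-likelihood test).

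The nuclear corepressors Ski, Skil and Tgif1 all rose with TGF-β, and none passed the test when 2APB was added. SKI and SKIL (SnoN) bind SMAD complexes on DNA and recruit histone deacetylases, and TGIF1 is a homeodomain corepressor that binds SMAD2. Ski (chr4:155154075-155222592, minus strand) had 6220 and 6073 normalized counts in DMSO, 12692 and 11657 in TGF-β, and 15713 and 14154 in TGF-β+2APB. The 3 groups of Ski did not overlap. It rose 1.98-fold with TGF-β (log2 fold change 0.99, SE 0.09, FDR = 0.000648, edgeR quasi-likelihood test). The further log2 fold change with 2APB was 0.29 (SE 0.09, 95% interval 0.08 to 0.51, FDR = 0.0709 in the same test).

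Skil (chr3:31095058-31122577, plus strand) had 9880 and 10140 normalized counts in DMSO, 13392 and 20863 in TGF-β, and 33727 and 27606 in TGF-β+2APB. The groups did not overlap, but the TGF-β libraries differed from each other by 0.64 on the log2 scale, the widest replicate gap of the 10 genes within either treated group. Skil rose 1.71-fold with TGF-β (log2 fold change 0.77, SE 0.22, FDR = 0.035, edgeR quasi-likelihood test). The estimate for added 2APB was the highest of the 10, a log2 fold change of 0.84 (SE 0.22, 95% interval 0.30 to 1.38), and at FDR = 0.0515 in edgeR's quasi-likelihood test it was just outside the threshold. DESeq2 put it inside (adjusted p = 0.00129), as did leaving out TGF-β replicate 1, which gave a log2 fold change of 0.56 (FDR = 0.037, edgeR), or TGF-β replicate 2, which gave 1.20 (FDR = 0.00373, edgeR). The size of the 2APB step of Skil therefore turned on which TGF-β library was used.

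Tgif1 (chr17:70844205-70853546, minus strand) had 8354 and 8393 normalized counts in DMSO, 20634 and 18174 in TGF-β, and 21935 and 20856 in TGF-β+2APB. It rose 2.32-fold with TGF-β (log2 fold change 1.21, SE 0.09, FDR = 0.000303, edgeR quasi-likelihood test). With 2APB added the libraries lay narrowly above those of TGF-β, the log2 fold change was 0.14 (95% interval -0.07 to 0.35) and FDR = 0.301 in edgeR's test. Of the combined log2 change of Tgif1 between DMSO and TGF-β+2APB, 89.6% was present with TGF-β alone, against 77% for Ski. For Skil the share was 48% and turned on the TGF-β library used, since its log2 fold change with TGF-β was 1.07 without TGF-β replicate 1 and 0.42 without replicate 2.

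The membrane adaptors Pmepa1 and Ldlrad4 rose most among the genes with a measurable DMSO level, and both rose again with 2APB. PMEPA1 and LDLRAD4 are related transmembrane proteins that bind SMAD2 and SMAD3 through a SMAD interaction motif and hold them away from the receptor. Pmepa1 (chr2:173224458-173276533, minus strand) had 5280 and 4976 normalized counts in DMSO, 43255 and 41255 in TGF-β, and 68201 and 60013 in TGF-β+2APB. It rose 8.24-fold with TGF-β (log2 fold change 3.04, SE 0.09, FDR = 3.63e-05, edgeR quasi-likelihood test). Addition of 2APB raised Pmepa1 1.52-fold more, a log2 fold change of 0.60 (SE 0.09, 95% interval 0.39 to 0.82, FDR = 0.0111, edgeR quasi-likelihood test). The call held in 15 of 16 alternatives, including without TGF-β+2APB replicate 2, and was lost without TGF-β+2APB replicate 1. Over the alternatives the log2 fold change ran from 0.48 to 0.69.

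Ldlrad4 (chr18:67933257-68268630, plus strand) had 167.2 and 184.0 normalized counts in DMSO, 2569 and 2598 in TGF-β, and 4501 and 3697 in TGF-β+2APB. The groups did not overlap, and the TGF-β+2APB libraries differed from each other by 0.284 on the log2 scale. It rose 14.7-fold with TGF-β (log2 fold change 3.88, SE 0.13, FDR = 4.63e-05) and 1.59-fold more with 2APB (log2 fold change 0.67, SE 0.11, 95% interval 0.39 to 0.94, FDR = 0.0166), both by edgeR's quasi-likelihood test. Without TGF-β+2APB replicate 2 it stayed called (FDR = 0.0228, edgeR), while without replicate 1 the FDR was 0.101. Ldlrad4 shares 2798 exonic bases with Fam210a on the opposite strand, and without a stated strand setting reads there cannot be assigned with certainty. Fam210a had 6100 and 6123 normalized counts in DMSO, 7161 and 7479 in TGF-β, and 5972 and 6213 in TGF-β+2APB, so its level moved the other way from Ldlrad4 when 2APB was added, with FDR = 0.0537 in edgeR's test.

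Ltbp2 (chr12:84783212-84876532, minus strand) encodes a matrix protein of the latent TGF-β binding family that, unlike its relatives, does not carry latent TGF-β itself. Its deposited counts were 6 and 0 in DMSO, 226 and 244 in TGF-β, and 216 and 242 in TGF-β+2APB. Both treated groups were far above DMSO and overlapped each other. Summed over a group, 470 counts with TGF-β stood against 6 with DMSO, a ratio of 78.1 with a 95% counting interval of 26.4 to 382, computed on halved counts because all values were even. The ratio for TGF-β+2APB was 74.9 (25.3 to 366), and these intervals cover counting error only. The rises passed edgeR's quasi-likelihood test (FDR = 0.00237 and 0.0016). Between the treated groups the log2 fold change of Ltbp2 was -0.06, with a 95% interval of -1.46 to 1.33 (FDR = 0.951, edgeR), from a spread that the model shares with the 6 and 0 counts of DMSO. Fitted on the 4 treated libraries alone its SE was 0.214 in place of 0.56. An antisense gene, D030025P21Rik, shares 764 exonic bases with Ltbp2 and had at most 14 counts in a library.

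**Figure D2:**
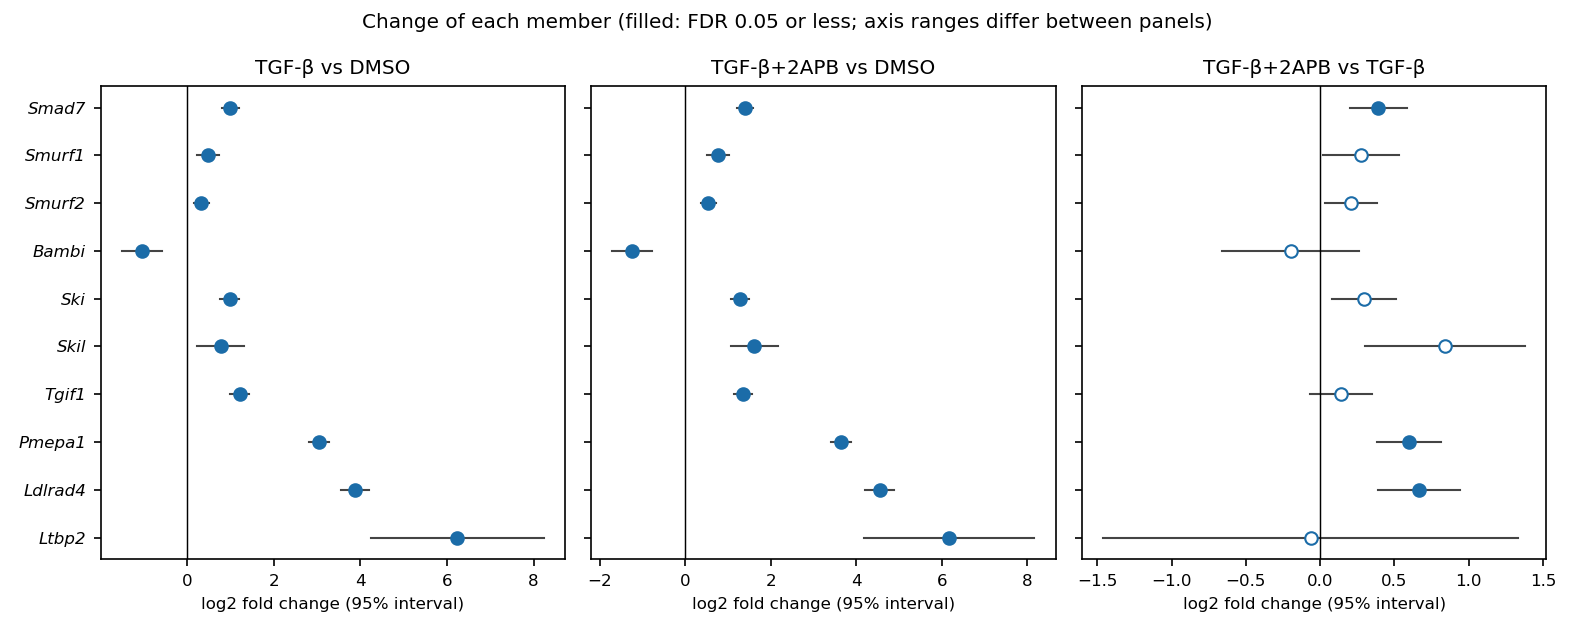
Fitted log2 fold change of each gene with its 95% interval in 3 comparisons, with filled points at an FDR of 0.05 or less in edgeR's quasi-likelihood test and axis ranges that differ between panels. All points are filled against DMSO, and only Smad7, Pmepa1 and Ldlrad4 are filled for TGF-β+2APB vs TGF-β. The wide interval of Ltbp2 against DMSO goes with 6 counts in the DMSO group, and its fitted value there depends on the prior count.

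Read against all genes, 41.5% of the 13355 tested genes were called in either direction between TGF-β and DMSO, 21.8% higher and 19.7% lower, where 9 of the 10 feedback regulators were higher and 1 was lower. The median log2 fold change of the 10 was 0.99, and that of all tested genes was -0.01. Between TGF-β+2APB and TGF-β, 17.5% of tested genes were called, 6.58% higher and 10.9% lower, where 3 of the 10 were higher and none lower by this test, with medians of 0.285 for the 10 and -0.00355 for all tested genes. DESeq2 without its prior called 6 of the 10 higher and 0 lower, where it called 1475 of all tested genes higher and 1905 lower. Between TGF-β+2APB and DMSO, 52.7% of tested genes were called, 25.6% higher and 27.2% lower, and all 10 feedback regulators were called, 9 higher and Bambi lower. Both libraries lay above both of the other group in 36% of tested genes for TGF-β against DMSO and below in 36.5%, where 9 and 1 of the 10 did so. For TGF-β+2APB against TGF-β this share was 27%, with 8 of the 10 above. For TGF-β+2APB against DMSO the shares were 42.3% above and 43.8% below, again with 9 and 1 of the 10. The comparisons share libraries, so their values stand side by side and are not independent of each other.

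The number of calls on addition of 2APB was sensitive to single libraries. With each library left out, the count over all tested genes moved in the same direction as the count among the 10. Both counts were lower without any 1 of the TGF-β+2APB or DMSO libraries, and higher without either TGF-β library. They are therefore not read as a result about the 10. The log2 fold change of Bambi for added 2APB was 0.09 without TGF-β replicate 1 and -0.43 without TGF-β replicate 2. DESeq2 called 6 of the 10, adding Ski, Skil and Smurf2. Over all tested genes it called 3380 without its prior, where the edgeR fit called 2335. Fitting only the 4 treated libraries called 1, Pmepa1, and 860 of all tested genes. Between TGF-β and DMSO, Skil, Smurf1 and Smurf2 were no longer called with either DMSO library left out. The calls over all tested genes also became fewer there. All 10 were called between TGF-β+2APB and DMSO with any library left out.

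**Figure D3:**
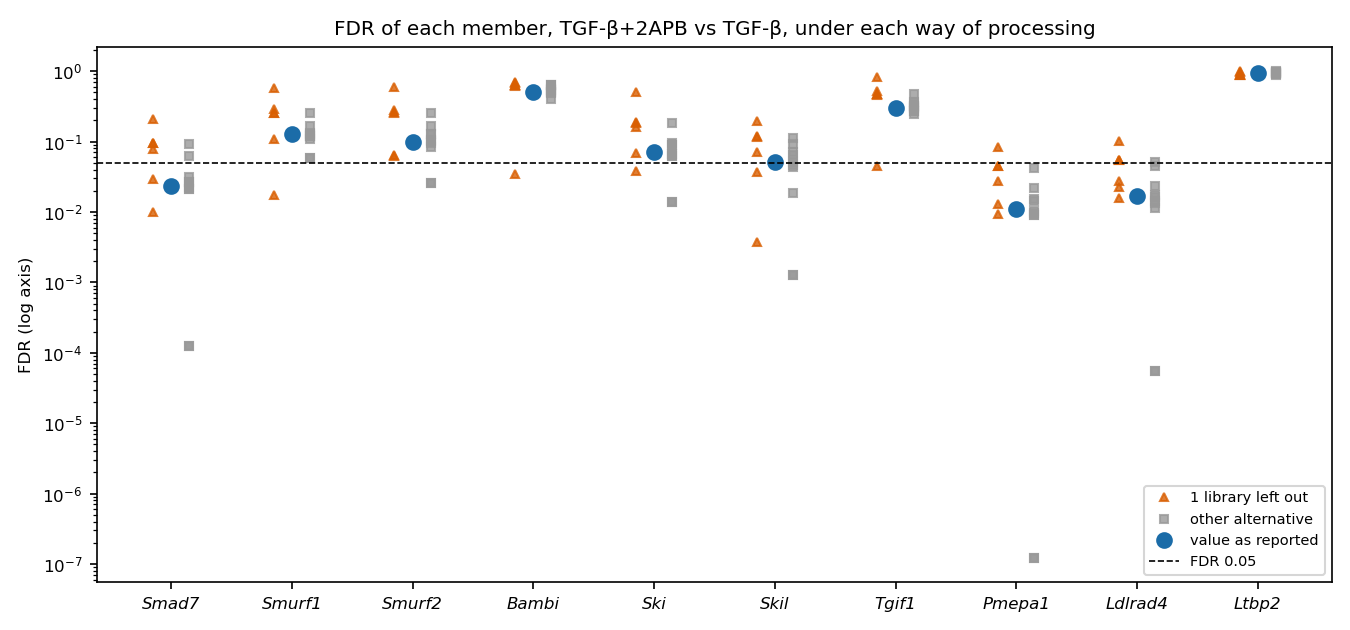
FDR (log axis) of each gene for TGF-β+2APB vs TGF-β as reported (large circles), with 1 library left out (triangles) and under the other alternatives (squares), against the threshold of 0.05 (dashed line). Pmepa1 was called in 15 of 16 alternatives, Ldlrad4 in 12, Smad7 in 10 and Skil in 7, and Ltbp2 in none of 15.

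Levels of different genes were compared per kilobase of union exon in the GRCm38 annotation. In DMSO the order from the top was Tgif1 at 1485 and 1492 normalized counts per kilobase, then Smurf1 at 1309 and 1285. Smurf2, Ski, Pmepa1, Smad7 and Skil followed between 1013 and 1144, a range in which neighbouring genes overlapped or lay close together. Bambi stood lower at 165.5 and 163.4, Ldlrad4 at 31.1 and 34.2, and Ltbp2 at 0.721 and 0. With TGF-β, Pmepa1 led at 8804 and 8397 per kilobase and Tgif1 was next at 3668 and 3231. With 2APB added, Pmepa1 stood at 13880 and 12220 per kilobase, Tgif1 at 3900 and 3708, and Skil came next at 3479 and 2848, above Smad7 at 2827 and 2601 and Ski at 2825 and 2545, which overlapped each other. Ldlrad4, at 838 and 688.4, and Ltbp2, at 26.1 and 29.2, remained low per length in spite of their large ratios to DMSO. Their lengths include 2798 and 764 exonic bases shared with genes on the opposite strand. How reads there were assigned is not known, so these levels per kilobase are uncertain.

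Genes whose pattern over the 6 libraries was most like that of the called regulators were found by the root mean square difference of log2 normalized counts after subtracting each gene's DMSO mean. For Smad7 these were Slc38a2, an amino acid transporter (difference 0.0527), Snx11, a sorting nexin (0.0586), and Aff1, a subunit of elongation complexes (0.0596). For Pmepa1 they were Nupr1, a stress-induced nuclear protein gene (0.0312), Sdc3, a syndecan (0.0691), and Adarb1, an RNA-editing enzyme (0.0713). For Ldlrad4 they were Sphk1, a sphingosine kinase (0.104), Fam101b (0.121) and Uts2b (0.125). Among the 10, Ski was the nearest to Smad7 (0.0874), at rank 20 of all tested genes. Pmepa1 and Ldlrad4 were each other's nearest of the 10, but at 0.707, since Ldlrad4 rose further. Over all tested genes Ldlrad4 ranked 150 by closeness to Pmepa1, and Pmepa1 ranked 107 by closeness to Ldlrad4.

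Target genes of SMAD3 outside the 10 rose with TGF-β in 12 of 14 cases, where 21.8% of all tested genes rose. With 2APB, 4 of the 14 rose further and 1 fell, where 6.58% and 10.9% of all tested genes did. The median log2 fold change of the 14 for added 2APB was 0.432. The integrin subunit gene Itgb6 (0.81, FDR = 0.0304), the growth factor gene Pdgfb (0.78, FDR = 0.0109), the ubiquitin ligase adaptor gene Spsb1 (0.48, FDR = 0.0155) and the matricellular gene Ctgf (0.47, FDR = 0.0252) rose on the log2 scale by edgeR's test. Fibronectin, Fn1, rose with TGF-β by 0.75 and fell by 0.33 on addition of 2APB (FDR = 0.0306, edgeR). These targets did not move as a block, since Cdkn2b (log2 fold change 0.00, FDR = 0.979), Klf10 (-0.02, FDR = 0.914), Tagln (0.17, FDR = 0.56) and Col1a1 (0.18, FDR = 0.54) did not pass with 2APB. Junb (0.40, FDR = 0.0517) and Nox4 (0.61, FDR = 0.176) did not pass either. Without TGF-β+2APB replicate 2, Itgb6 (FDR = 0.0157) and Pdgfb (FDR = 0.0141) stayed called, and Spsb1 (FDR = 0.0525), Ctgf (FDR = 0.0698) and Fn1 (FDR = 0.186) did not, by edgeR's test. Snai1, the repressor gene of the epithelial to mesenchymal transition, had 5.90 and 12.4 normalized counts in DMSO, 25.3 and 41.5 in TGF-β, and 43.6 and 61.2 in TGF-β+2APB, with a log2 fold change of 1.86 for TGF-β (FDR = 0.0341) and 0.65 for 2APB (FDR = 0.385) by edgeR's test. Cdkn1a was lower with TGF-β (-0.93, FDR = 0.00506, edgeR). Tgfbi was not called in any comparison and stood at 614 in TGF-β+2APB replicate 2 against at most 118 elsewhere. Its level in TGF-β+2APB against DMSO therefore has no direction here, with a log2 fold change of -3.70 without that library and 2.94 without TGF-β+2APB replicate 1.

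**Figure D4:**
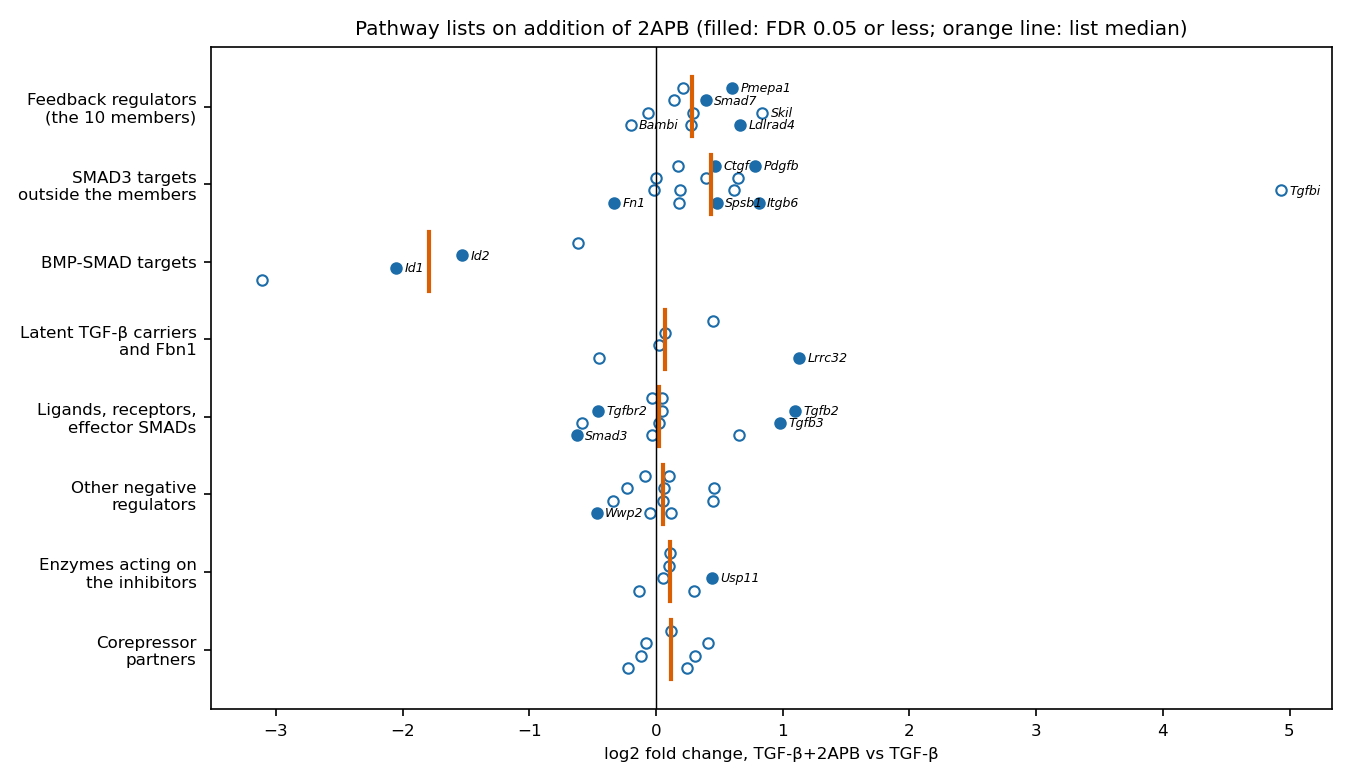
Log2 fold change of each tested gene for TGF-β+2APB vs TGF-β by pathway list, with filled points at an FDR of 0.05 or less in edgeR's quasi-likelihood test and the list median as an orange line. The 10 regulators have a median of 0.285 and the 14 SMAD3 targets 0.432, while BMP-SMAD targets lie to the left of 0.

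Upstream of the inhibitors, 5 of 11 genes for ligands, receptors and effector SMADs rose with TGF-β and 1 fell. Over all tested genes the shares were 21.8% and 19.7%. With 2APB added, the ligand genes Tgfb2 (log2 fold change 1.10, FDR = 0.00958) and Tgfb3 (0.98, FDR = 0.044) rose, and Smad3 (-0.63, FDR = 0.0301) and the type II receptor gene Tgfbr2 (-0.46, FDR = 0.0233) fell by edgeR's test. Without TGF-β+2APB replicate 2, Tgfb2 stayed called (FDR = 0.00909), and Tgfb3 (FDR = 0.104), Smad3 (FDR = 0.0572) and Tgfbr2 (FDR = 0.118) did not in the same edgeR test. Smad3 had 18872 and 18694 normalized counts in DMSO, 33718 and 27194 in TGF-β, and 18005 and 21451 in TGF-β+2APB. Its TGF-β+2APB libraries thus spanned the DMSO level and lay below the TGF-β pair. Of 5 genes for latent TGF-β carriers and the microfibril protein fibrillin, 5 rose with TGF-β, and Lrrc32, the surface anchor of latent TGF-β, rose further with 2APB (1.13, FDR = 0.00559, and 0.00818 without TGF-β+2APB replicate 2, edgeR). The relatives of Ltbp2 differed in their TGF-β step, with log2 fold changes of 2.32 for Ltbp1, 0.74 for Ltbp3 and 1.68 for Ltbp4, and none passed with 2APB (0.07, 0.03 and -0.45).

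Other negative regulators did not follow the pattern of the 10. Of 11 such genes, 2 rose and 3 fell with TGF-β, where 21.8% and 19.7% of all tested genes did. With 2APB 1 fell, the ubiquitin ligase gene Wwp2 (-0.47, FDR = 0.0193, edgeR), where 10.9% of all tested genes fell. Smad6, the inhibitory SMAD best known for BMP signalling and the closest relative of Smad7, fell by 0.47 on the log2 scale with TGF-β (FDR = 0.00646, edgeR), and its value for 2APB was 0.12 (FDR = 0.362). Tgif2 did not pass in either step (-0.19, FDR = 0.436, and -0.05, FDR = 0.875, edgeR). Of 6 enzymes that act on the inhibitors or receptors, Usp11 fell by 0.56 with TGF-β (FDR = 0.00457, edgeR) and rose by 0.45 with 2APB (FDR = 0.0232). None of 7 corepressor partner genes passed with 2APB, where 17.5% of all tested genes were called in either direction. Of 4 tested BMP-SMAD target genes, 4 fell with TGF-β, and Id1 (-2.05, FDR = 0.00358) and Id2 (-1.53, FDR = 0.0144) fell further with 2APB by edgeR's test. Without TGF-β+2APB replicate 2, Id1 (FDR = 0.00818) and Id2 (FDR = 0.00541) stayed called, and Wwp2 (FDR = 0.124) and Usp11 (FDR = 0.142) did not, by edgeR's test. In all, 6 of the 14 listed pathway genes called on addition of 2APB stayed called without that library, and over all tested genes the calls went from 2335 to 1258.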

How the data were processed

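RNA of 2 NMuMG replicates per group was sequenced with single-end reads. Per the labels and the study's methods, the authors checked reads with FastQC 0.11.2, aligned with TopHat2 2.0.13 and used featureCounts to count per gene, and deposited raw counts by gene symbol without normalization. The labels name the mouse build mm10 and the methods a human build, while the symbols are mouse symbols. Annotation, strand setting and handling of multi-mapping reads are not given in the sources used here. Of the names, 25 had become dates in a spreadsheet.

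Counts were fitted with edgeR 4.0.16 (R 4.3.3, limma 3.58.1; TMM scaling, a mean of at least 20 normalized counts, 3 groups in 1 quasi-likelihood model, F-test, Benjamini-Hochberg FDR of 0.05). Standard errors were obtained from the log2 fold change over the root of F. The biological coefficient of variation was 17.4%. The study's methods call the replicates biological, and p-values measure the spread between them. Alternatives were DESeq2 1.42.0 with and without its prior, RLE or library size scaling, other filters, the 4 compared libraries alone, a replicate block, an FDR of 0.01 and each library left out, and, added after seeing the data, halved counts and an exchanged block. Fits were also run on simulated counts with few changed genes and the same spread for all genes. That setting is unlike these data, so the run does not measure the error of the calls here. Tables and plots used Python 3.11.15, pandas 2.3.3 and matplotlib 3.10.9. Gene positions came from GENCODE on GRCm38. The genes, lists and tests were chosen with earlier results of these data known. Named genes were the 10 regulators, the listed pathway genes called on addition of 2APB (at most 3 in each direction), all SMAD3 targets but 1 that is not reported here and was left out of its list, Smad6, Tgif2, Ltbp1, Ltbp3 and Ltbp4, and the 3 nearest patterns of each called regulator, and other names were chosen after their values were seen.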

Additional observations from a re-analysis of the deposited data

How the results depend on the processing

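For TGF-β+2APB against TGF-β, DESeq2 called 6 of the 10 regulators without its prior and 6 with it, the 4 compared libraries alone gave 1, and an FDR of 0.01 gave 0 (edgeR). Leaving out each library in turn gave 0 to 7 in that comparison, 6 to 10 between TGF-β and DMSO, where without DMSO replicate 1 it was 6, and 10 throughout between TGF-β+2APB and DMSO. With at least 10 counts in every library Ltbp2 could not be tested, and Skil was then called (FDR = 0.0435, edgeR), as with halved counts (FDR = 0.047). Over all tested genes, an FDR of 0.01 left 3369 calls between TGF-β and DMSO and 601 between TGF-β+2APB and TGF-β, where the 4 libraries alone gave 860. With each library left out, these counts ran from 2753 to 7640, from 834 to 5405, and from 4354 to 9006 between TGF-β+2APB and DMSO. The log2 fold change of Tgfbi between TGF-β+2APB and DMSO was -3.70 without TGF-β+2APB replicate 2 and 2.94 without TGF-β+2APB replicate 1. Scaling by RLE or library size moved the median of all genes by less than 0.1 and changed no regulator's call. The cause of these differences was not tested.

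The labels number the replicates and do not state whether equal numbers were paired. The replicate differences of DMSO correlated with those of TGF-β at 0.156 across genes, and with those of TGF-β+2APB at -0.479. Those of TGF-β correlated with those of TGF-β+2APB at -0.247. With the replicate number as a block, 1343 genes were called between TGF-β+2APB and TGF-β in place of 2335, and 2 of the 10 regulators, without Smad7 (FDR = 0.0623, edgeR), while between TGF-β and DMSO 9 were called, without Skil (FDR = 0.0649). A block with the TGF-β+2APB numbers exchanged, added after seeing the data, called 4 of the 10 between TGF-β+2APB and TGF-β. Over all tested genes it called 2465, and pairing was not tested.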
